A study of Mus musculus with 6 samples.

Results

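The expression of 10 basic leucine zipper (bZIP) transcription factor genes, Cebpa, Cebpb, Cebpd, Cebpg, Atf3, Batf, Batf2, Batf3, Nfil3 and Crem, was measured by RNA-seq in primary microglial cells (PM). The genes were chosen by symbol, and each of the 10 matched 1 of the 24411 gene symbols in the count tables. PM were collected by shaking mixed glial cultures made from pooled brains of neonatal ICR mice. The mice are taken as wild-type, since the study names no genetic change. The cultures also held other glia, and the study reports by flow cytometry for CD11b that most of the cells obtained were microglia. In total, 3 libraries were from PM treated with GSK-J4 (10 μM) and 3 from PM treated with GSK-J4 (10 μM) together with LPS (10 ng/ml), all at 4 h. GSK-J4 inhibits H3K27 demethylases, JMJD3 among them, and LPS is a bacterial ligand of TLR4 that activates microglia. Both groups received GSK-J4, so each fold change is the LPS response in the presence of the inhibitor. Untreated PM and PM treated with LPS alone were not analysed here.

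Proteins with a bZIP domain bind DNA as dimers through a basic region that is held in place by a zipper of leucines, and the choice of partner sets the sequence that is bound. C/EBPα directs the differentiation of myeloid cells, while C/EBPβ and C/EBPδ are known as activators of cytokine and acute-phase genes in macrophages. C/EBPγ has no activation domain of its own and works through its partners. ATF3 is a stress-induced repressor of Toll-like receptor responses, CREM gives rise to activators and to the short repressor ICER of cAMP-responsive genes, and NFIL3 represses genes with a D-box, where the clock factor DBP activates. BATF and BATF3 have a bZIP domain and little else. Like BATF2, they pair with JUN proteins and cooperate with IRF4 or IRF8.

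Counts on genes summed to 2597505 to 3472716 per library. The share of the ribosomal RNA precursor Rn45s was 22.2, 22.3 and 32.4% in replicates 1 to 3 of GSK-J4. It was 45.8 to 48.1% for LPS + GSK-J4, which left fewer counts for other genes in that group. GSK-J4 replicate 3 was also the library with the fewest counts on genes. Levels are given as CPM, counts relative to the library total after scaling by edgeR's TMM factors, on which 3 counts in a library correspond to 0.673 to 1.24 CPM. Replicate 3 of each group stood apart from replicates 1 and 2. Counts of replicates 1 and 2 differed by a chi-square of 2.21 and 2.44 per degree of freedom, and each pair with replicate 3 by at least 6.27. All 7 microglial markers reported (Aif1, Itgam, Csf1r, Cx3cr1, P2ry12, Tmem119 and C1qa) had counts in every library. Their sum was 1822 to 1868 CPM for GSK-J4 but 1357 to 1507 CPM for LPS + GSK-J4, with P2ry12 at 13.2 and 9.21 CPM and Tmem119 at 5.01 and 2.66 CPM in the respective means. Markers of other cells were also found, and their sums are given for GSK-J4 first and LPS + GSK-J4 second. The 6 astrocyte markers summed to 47.8 to 53.9 CPM and to 118 to 149.9 CPM, the 6 oligodendrocyte markers to 112 to 136 CPM and to 203 to 235 CPM, and the 4 neuronal markers to 6.06 to 7.08 CPM and to 14.1 to 16.4 CPM. The neuronal sum was mostly Tubb3, at means of 5.27 and 13.9 CPM and the only neuronal marker detected in every library. The others had at most 5 counts in a library, and of these Rbfox3 and Syt1 were lower and Snap25 was higher in LPS + GSK-J4. The 5 vascular and fibroblast markers ranged from 47.1 to 189 CPM and from 67.5 to 246 CPM, with Cldn5 at 0 throughout. In bulk RNA a larger number of cells of a type and more RNA per cell cannot be told apart.

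LPS lowered Cebpa in the presence of GSK-J4, and no other gene of the 10 passed both thresholds of the differential test. Calls were made with edgeR's quasi-likelihood test over the 10133 genes that passed a filter on low counts, with a limit of 0.01 for the p adjusted after Benjamini and Hochberg and of 1.5 for the log2 fold change in either direction. The filter left 7 of the 10 genes and removed Batf, Batf2 and Batf3. Of these 7, 1 was down-regulated and 0 were up-regulated, while 0.809% of all genes tested were down-regulated and 2.95% up-regulated. With both limits, DESeq2 called 0 of the 10 genes up and 1 down. Of all 18016 genes with a fold change in DESeq2, it called 253 up and 89 down. At an unadjusted edgeR p under 0.05, 3 of the 7 genes were higher in LPS + GSK-J4 (Cebpd, Nfil3 and Atf3) and 2 were lower. Of all genes tested, 19.3% were higher and 15.5% lower at that p. With the limit for the adjusted p alone, 1 gene was higher (Cebpd) and 2 were lower (Cebpa and Cebpg), against 8.42 and 5.46% of all genes tested. The 3 libraries of LPS + GSK-J4 lay above the 3 of GSK-J4 for 3 of the tested genes and below them for 2, and this held for 19.8 and 18.4% of all genes tested. The median log2 fold change of the 7 genes was 0.30 and that of all genes tested was 0.00.

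**Figure D1:**
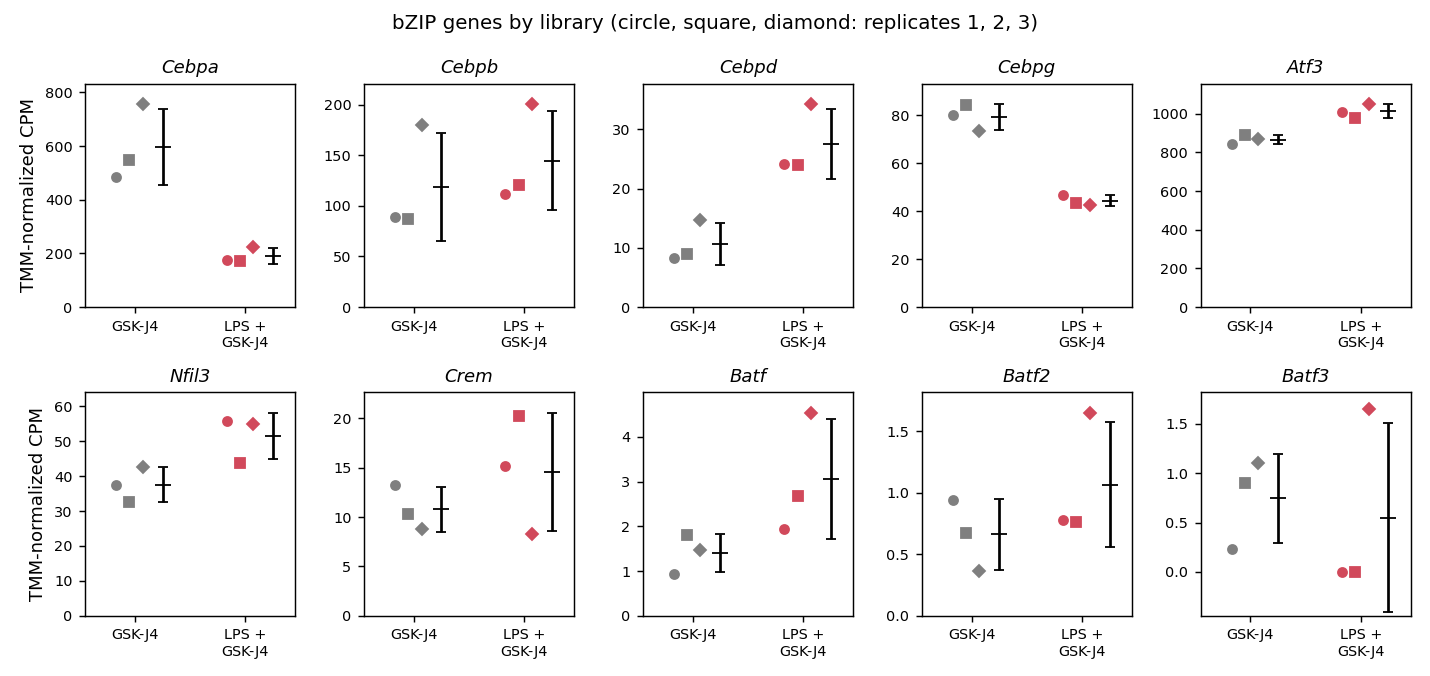
Level of each of the 10 bZIP genes in CPM (vertical axes, linear, a different range in each panel) in the 3 GSK-J4 libraries (grey) and the 3 LPS + GSK-J4 libraries (red), with the mean and SD of each group in black. The groups are apart for Cebpa, Cebpd, Cebpg, Atf3, Nfil3 and, at few counts, Batf, and replicate 3 (diamonds) is the highest library of each group for Cebpa, Cebpb and Cebpd.

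Cebpa (mm10 chromosome 7, 35119293 to 35121928, plus strand), the C/EBP gene with the most counts in PM treated with GSK-J4, stood at 483, 549 and 757 CPM in replicates 1 to 3 of GSK-J4. In replicates 1 to 3 of LPS + GSK-J4 it stood at 174, 172 and 224 CPM. The highest library of the LPS group was thus below the lowest of the other group, and the fall is larger than the spread within either. The means were 596 ± 143 and 189.9 ± 29.8 CPM (SD, n = 3), with a log2 fold change of -1.65 (standard error 0.16, 95% interval -1.99 to -1.31, edgeR adjusted p = 1.50e-06), which leaves 31.9% of the GSK-J4 level. The call rests on 6557 and 1438 counts in all. Without GSK-J4 replicate 3, the highest library, the log2 fold change was -1.45 and Cebpa was not called (edgeR adjusted p = 2.74e-06), and without replicate 3 of both groups it was -1.57 and the call held.

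Cebpb (chromosome 2, 167688915 to 167690418, plus strand) did not differ beyond the spread between replicates in the main test, which has no replicate block. With replicate number as a block the log2 fold change was 0.32 (edgeR adjusted p = 0.0140), and Cebpb was still not called. Its level was 89.2, 86.6 and 180 CPM in replicates 1 to 3 of GSK-J4, and 112, 121 and 201 CPM in LPS + GSK-J4. Replicate 3 was the highest library of both groups and its GSK-J4 library lay inside the LPS group, so the groups overlapped. The log2 fold change was 0.30 (standard error 0.36, edgeR adjusted p = 0.612), with a 95% interval from -0.55 to 1.15 that reaches past a 2-fold difference. Without replicate 3 of both groups, an alternative chosen after the data were seen, the log2 fold change was 0.41 (edgeR adjusted p = 0.00482), and without LPS + GSK-J4 replicate 3 alone it was 0.00 (edgeR adjusted p = 0.999). Replicate 3 was 2.05 times the mean of replicates 1 and 2 in GSK-J4 and 1.72 times in LPS + GSK-J4 for Cebpb. The ratios were 1.47 and 1.30 for Cebpa and 1.70 and 1.42 for Cebpd. These are the genes among the 7 with an annotated protein-coding transcript of 1 exon. For Cebpg, Atf3, Nfil3 and Crem, which have none, they were between 0.466 and 1.21. The part of exon number in this was not tested.

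Cebpd (chromosome 16, 15887286 to 15891031, plus strand) had the largest positive log2 fold change of the genes tested. In the GSK-J4 libraries, replicates 1 to 3 in turn, it was at 8.26, 8.98 and 14.7 CPM, and at 24.2, 24.0 and 34.3 CPM in LPS + GSK-J4. Each LPS library was above each GSK-J4 library, at low levels of 35 to 83 counts per library. The log2 fold change was 1.41 (standard error 0.24, 95% interval 0.89 to 1.93), a 2.66-fold difference that passed the threshold for the adjusted p (edgeR adjusted p = 0.000483) and missed that for the fold change. Without GSK-J4 replicate 3 it was 1.66 and Cebpd was called up-regulated, and without replicate 3 of both groups it was 1.49. Astrocytes are known to express Cebpd as well, and 5 of the 6 astrocyte markers were detected in every library. Gfap went from 16.8 ± 2.34 to 54.4 ± 11.8 CPM, Gja1 from 20.7 ± 3.97 to 53.0 ± 5.97 CPM and Aqp4 from 7.69 ± 1.78 to 20.3 ± 3.08 CPM (SD, n = 3), while S100b had at most 4 counts. The log2 fold changes of Gfap, Gja1 and Aqp4 were 1.70, 1.38 and 1.37, beside 1.41 for Cebpd, and that of Gfap was called (edgeR adjusted p = 9.28e-06). Slc1a3 (log2 fold change 0.69) and Aldh1l1 (-0.16, with means of 3.27 and 2.94 CPM) overlapped between the groups and did not pass either threshold. The part of astrocyte RNA in the Cebpd difference was not tested.

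Cebpg (chromosome 7, 35046422 to 35056573, minus strand) was lower in LPS + GSK-J4 and had the smallest relative spread of the 4 C/EBP genes. Its level was 80.2, 84.2 and 73.3 CPM in replicates 1 to 3 of GSK-J4 and 46.8, 43.5 and 42.5 CPM in LPS + GSK-J4. The groups did not overlap, and the LPS group was at 55.8% of the other. The log2 fold change was -0.84 (standard error 0.14, 95% interval -1.13 to -0.55, edgeR adjusted p = 0.000283), short of the threshold for the fold change. The alternatives tried, each library left out among them, gave -0.90 to -0.80. In the GENCODE annotation the gene models Gm44836 and Gm45094 overlap Cebpg on its strand. Neither symbol is among the 7 genes of the count tables that start within 250 kb of the Cebpa start. How reads over these models were counted is not known.

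The order of Cebpa and Cebpb per kilobase of exon differed between the groups. In CPM without that division Cebpa was above Cebpb in every library, with LPS + GSK-J4 means of 189.9 and 144.6 CPM. Per kilobase of annotated exon, Cebpa was at 226 ± 54.2 CPM per kb and Cebpb at 78.9 ± 35.4 CPM per kb in GSK-J4, and at 72.0 ± 11.3 and 96.1 ± 32.5 CPM per kb in LPS + GSK-J4 (SD, n = 3). Of the summed CPM per kb of the 4 genes, Cebpa took 70.8, 73.5 and 67.8% in replicates 1 to 3 of GSK-J4 and 42.5, 40.8 and 36.2% in LPS + GSK-J4. The share of Cebpb was 23.8% ± 4.03 and 51.7% ± 4.52, so that Cebpb stood below Cebpa in each GSK-J4 library and above it in each LPS + GSK-J4 library. Cebpd took 0.874% ± 0.0435 and 4.02% ± 0.137, and Cebpg 4.63% ± 1.34 and 4.48% ± 1.12 (SD, n = 3). The summed level of the 4 genes was 322 ± 88.9 CPM per kb in GSK-J4 but 183 ± 45.0 CPM per kb in LPS + GSK-J4. These levels depend on exon lengths of the GENCODE annotation, which need not be those used for counting.

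**Figure D2:**
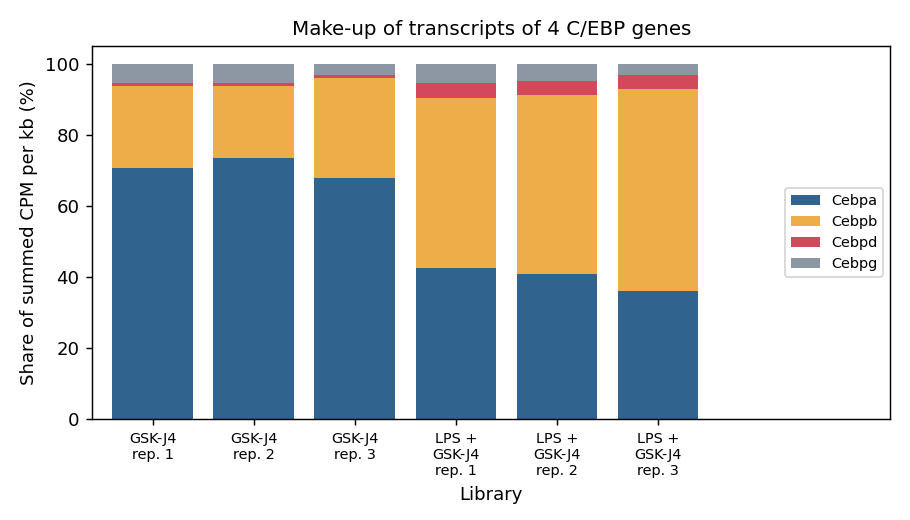
Share (%) of Cebpa, Cebpb, Cebpd and Cebpg in the summed CPM per kb of these 4 genes (vertical axis, from 0) in each of the 6 libraries (horizontal axis). Cebpa is the largest share in the 3 GSK-J4 libraries, with 67.8 to 73.5%, and Cebpb in the 3 LPS + GSK-J4 libraries.

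Ratios of counts within a library do not depend on how the libraries were scaled, and 5 of them were compared. The ratio of Cebpb to Cebpa counts was 0.185, 0.158 and 0.238 in replicates 1 to 3 of GSK-J4 and 0.645, 0.705 and 0.895 in LPS + GSK-J4, a 3.88-fold difference. That of Cebpd to Cebpa was 0.0166 to 0.0196 for GSK-J4 but 0.140 to 0.154 for LPS + GSK-J4, 8.14-fold higher. That of Cebpg to Cebpa was 1.74-fold higher. In these 3 ratios each LPS + GSK-J4 library was above each GSK-J4 library, and the 2-sided exact permutation test gave p = 0.1 (adjusted over the 5 ratios p = 0.167), where 0.1 is the smallest p that 3 libraries against 3 allow. The ratios of Batf2 and Batf3 to Batf rested on at most 11 counts per gene and library and overlapped between the groups.

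**Figure D3:**
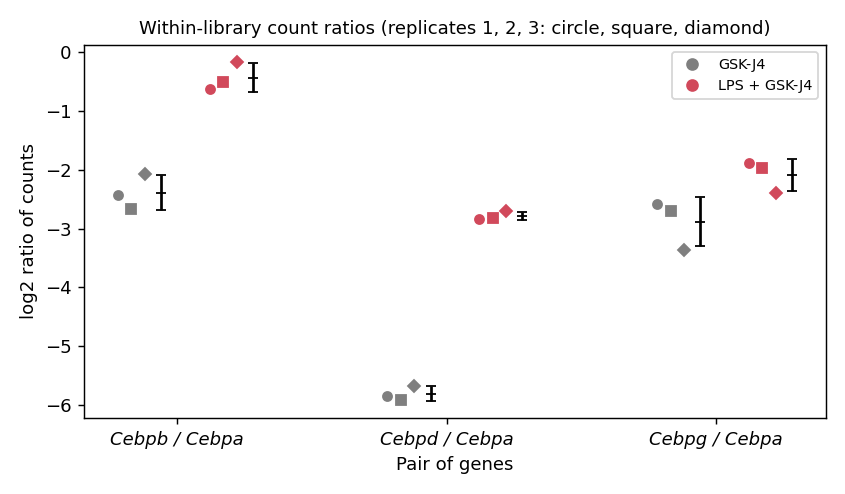
log2 ratio of the counts of Cebpb, Cebpd and Cebpg to those of Cebpa (vertical axis) in the 3 GSK-J4 libraries (grey) and the 3 LPS + GSK-J4 libraries (red), with the mean and SD of each group in black. For each pair of genes (horizontal axis) the red points lie above the grey ones, by the most for Cebpd.

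Promoter sequences were taken from RefSeq (GRCm38.p6, the mm10 assembly) for 7 of the 10 genes, and 250 bases upstream of the start were searched on both strands for 8 motifs. The motifs were the cAMP response element half-site (TGACG), the near-complete cAMP response element (TNACGTCA, which overlaps the half-site), the C/EBP-ATF composite element (TGATGNAA), a C/EBP palindrome (TTGCNNAA), an NF-kB-like site (GGGNNTTCC), an AP-1 site (TGANTCA), the CCAAT box (CCAAT) and the TATA box (TATAA). Stretches of 200 bases that hold no annotated exon of the gene and end next to the exon that follows are shown, 5′ to 3′ on the strand of the gene with matches in capitals, for the pair of C/EBP genes that were lower, for Cebpb, whose groups overlapped, and for Atf3, the most abundant member. They lie at chr7:35119093-35119292 (plus strand) for Cebpa, chr7:35056574-35056773 (minus strand) for Cebpg, chr2:167688715-167688914 (plus strand) for Cebpb and chr1:191183341-191183540 (minus strand) for Atf3. The Atf3 stretch lies next to the start given by RefSeq, 34.5 kb inside the annotated gene, where a longer transcript starts farther upstream.
Cebpa: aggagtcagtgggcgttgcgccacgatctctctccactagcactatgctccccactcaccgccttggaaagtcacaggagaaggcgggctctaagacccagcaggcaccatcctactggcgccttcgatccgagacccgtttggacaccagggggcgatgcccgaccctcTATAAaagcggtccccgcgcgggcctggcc
Cebpg: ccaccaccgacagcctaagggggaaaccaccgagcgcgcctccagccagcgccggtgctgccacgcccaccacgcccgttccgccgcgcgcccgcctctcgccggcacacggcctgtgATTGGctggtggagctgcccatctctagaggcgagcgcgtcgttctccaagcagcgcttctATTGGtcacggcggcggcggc
Cebpb: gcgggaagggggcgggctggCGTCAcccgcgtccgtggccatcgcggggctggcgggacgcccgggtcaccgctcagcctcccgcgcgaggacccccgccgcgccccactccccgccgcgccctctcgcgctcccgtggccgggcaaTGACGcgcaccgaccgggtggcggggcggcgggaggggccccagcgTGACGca
Atf3: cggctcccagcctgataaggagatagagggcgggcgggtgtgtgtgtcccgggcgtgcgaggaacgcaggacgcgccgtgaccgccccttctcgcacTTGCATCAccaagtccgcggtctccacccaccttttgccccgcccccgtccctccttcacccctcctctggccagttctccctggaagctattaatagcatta

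The 4 promoters shared none of these motifs in the bases searched, apart from the half-site in Cebpb and Atf3. Of the promoters searched but not shown, Batf held a half-site at -98 to -94, and no match was found for Batf3. Nfil3 held a half-site at -59 to -55 and a CCAAT box at -77 to -73. The Cebpa stretch held a TATA box at positions -30 to -26 from the start, a motif in 22.8% of the 32851 promoters of the table, and had no match to the others. Cebpg held a pair of CCAAT boxes on the opposite strand, a motif in 33.8% of promoters. Cebpb held 3 cAMP response element half-sites, at -180 to -176, -53 to -49 and -7 to -3, and 17.8% of promoters held at least 1. Atf3 held a C/EBP-ATF composite element at -110 to -103 on the opposite strand (3.45% of promoters) and a near-complete cAMP response element at -10 to -3, which runs past the end of the stretch shown (2.52%). A match describes the letters only.

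Atf3 (chromosome 1, 191170296 to 191218039, minus strand) was the most abundant of the 10 genes in both groups, with 2368 to 3962 counts per library. In the GSK-J4 libraries, replicates 1 to 3 in turn, it was at 843, 889 and 868 CPM and at 1011, 978 and 1051 CPM in LPS + GSK-J4. The groups did not overlap and differed by little. The means were 867 ± 23.3 and 1013 ± 36.9 CPM (SD, n = 3), with a log2 fold change of 0.23 (standard error 0.10, 95% interval 0.02 to 0.43, edgeR adjusted p = 0.114). The interval lies below the threshold of 1.5 on the log2 scale over its whole length.

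Crem (chromosome 18, 3266048 to 3337748, minus strand) was at 13.2, 10.3 and 8.80 CPM in replicates 1 to 3 of GSK-J4 and at 15.2, 20.2 and 8.26 CPM in LPS + GSK-J4. The lowest value of all was an LPS + GSK-J4 library and the groups overlapped. Its log2 fold change was 0.42 (95% interval -0.19 to 1.04, edgeR adjusted p = 0.327), and it ranged from 0.11 without LPS + GSK-J4 replicate 2 (edgeR adjusted p = 0.856) to 0.69 without LPS + GSK-J4 replicate 3 (edgeR adjusted p = 0.0412). The annotation lists 39 transcripts of Crem, and counts per gene do not part the activators from ICER.

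Nfil3 (chromosome 13, 52967209 to 52981073, minus strand) was at 37.5, 32.5 and 42.5 CPM in replicates 1 to 3 of GSK-J4 and at 55.8, 43.9 and 54.9 CPM in LPS + GSK-J4. The groups did not overlap, but the lowest LPS library was close above the highest GSK-J4 library. The log2 fold change was 0.47 (standard error 0.16, 95% interval 0.12 to 0.81, edgeR adjusted p = 0.0470), and Nfil3 passed neither threshold. Without replicate 3 of both groups the log2 fold changes of Nfil3, Atf3, Crem and Cebpg were 0.52, 0.21, 0.60 and -0.86, and none of these genes was called.

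**Figure D4:**
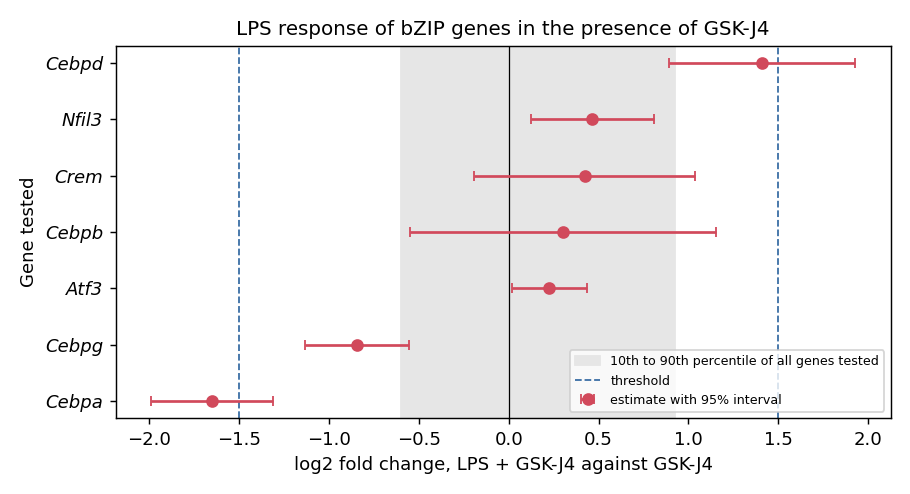
log2 fold change of LPS + GSK-J4 against GSK-J4 (horizontal axis) with its 95% interval for the 7 genes tested (vertical axis), the thresholds of -1.5 and 1.5 (dashed lines) and the range from the 10th to the 90th percentile of all genes tested (grey, -0.60 to 0.93). Cebpa lies beyond the threshold, Cebpd just inside it, and the intervals of Crem and Cebpb include 0.

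The Batf genes were near the lower limit of detection. Batf (chromosome 12, 85686669 to 85709087) had 4, 8 and 4 counts in replicates 1 to 3 of GSK-J4 and 5, 7 and 11 counts in LPS + GSK-J4, or 1.40 ± 0.430 and 3.05 ± 1.34 CPM (SD, n = 3). On the CPM scale each LPS library was above each GSK-J4 library, and without the filter on low counts the log2 fold change was 1.04 (95% interval -0.07 to 2.15, edgeR adjusted p = 0.239). Batf2 (chromosome 19, 6140983 to 6172476), which overlaps the gene model Gm5510 on its strand, had 4, 3 and 1 counts and 2, 2 and 4 counts. Batf3 (chromosome 1, 191097847 to 191108945) had 1, 4 and 3 counts and 0, 0 and 4 counts. Their means were at most 1.07 CPM in either group, and their intervals without the filter, -1.20 to 2.24 and -2.49 to 1.60 on the log2 scale, include changes in both directions. An LPS response of Batf2 or Batf3 was not detectable at this depth.

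Levels per kilobase of exon spanned 3 orders of magnitude among the 10 genes. In GSK-J4 they ran from Atf3 (402 ± 10.8 CPM per kb) through Cebpa, Cebpb, Nfil3 (18.5 ± 2.46), Cebpg (14.1 ± 0.976), Cebpd (2.84 ± 0.937), Crem (1.83 ± 0.380) and Batf (0.997 ± 0.306) to Batf3 (0.466 ± 0.283) and Batf2 (0.262 ± 0.114; SD, n = 3). The spreads of Cebpd and Crem, of Batf and Batf3 and of Batf3 and Batf2 overlapped. In LPS + GSK-J4 the order was Atf3 (470.4 ± 17.1 CPM per kb), Cebpb, Cebpa, Nfil3 (25.4 ± 3.28), Cebpg (7.88 ± 0.401), Cebpd (7.34 ± 1.57), Crem (2.47 ± 1.02), Batf (2.17 ± 0.951), Batf2 (0.422 ± 0.201) and Batf3 (0.345 ± 0.597). There the spreads of Cebpb and Cebpa, of Cebpg and Cebpd, of Crem and Batf and of Batf2 and Batf3 overlapped. The length of Crem is the union of the exons of its 39 transcripts, so its level per kilobase is lower than for a single short transcript.

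The rest of the bZIP class was read from a list of 43 genes, of which 34 were tested. LPS up-regulated 5 of them and down-regulated 1, with a median log2 fold change of 0.07. AP-1 genes, which include the JUN genes whose products pair with BATF, made up 4 of the 5. All 8 AP-1 genes listed were tested, with a median log2 fold change of 1.33, and Fos, Fosl1, Fosb and Junb rose. Fos went from 10.2 ± 1.94 to 63.5 ± 4.88 CPM and Junb from 283 ± 56.1 to 909 ± 144 CPM (SD, n = 3), with log2 fold changes of 2.64 and 1.69. Fosl1 was not called without LPS + GSK-J4 replicate 3 (log2 fold change 1.48). Of the MAF and CNC genes, 9 were tested and Maff, a small MAF protein without an activation domain, was called. Maff was at 65.6, 66.0 and 73.0 CPM in replicates 1 to 3 of GSK-J4 and at 198, 196 and 213 CPM in LPS + GSK-J4, a log2 fold change of 1.57.

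None of the 14 CREB and ATF genes tested was called. At the threshold stood Atf4, the main factor of the integrated stress response, which pairs with C/EBP proteins. In the GSK-J4 libraries, replicates 1 to 3 in turn, it was at 1360, 1454 and 1371 CPM and at 498, 508 and 474 CPM in LPS + GSK-J4. The groups were far apart, and the log2 fold change of -1.49988 (standard error 0.10, edgeR adjusted p = 1.99e-08) missed the threshold of 1.5 in the last digits. Creb5, named after its value was seen, was higher (log2 fold change 1.45, edgeR adjusted p = 0.00767) at 2.43 and 6.60 CPM. Ddit3, which encodes the C/EBP relative CHOP, went from 72.7 ± 9.53 to 43.5 ± 8.79 CPM (SD, n = 3), with a log2 fold change of -0.74 (edgeR adjusted p = 0.00381) that was not called. Of the PAR genes, Dbp and Tef were tested and Dbp, whose D-box sites are also bound by NFIL3, fell from 19.8 ± 4.12 to 5.53 ± 0.227 CPM (SD, n = 3), with a log2 fold change of -1.81.

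**Figure D5:**
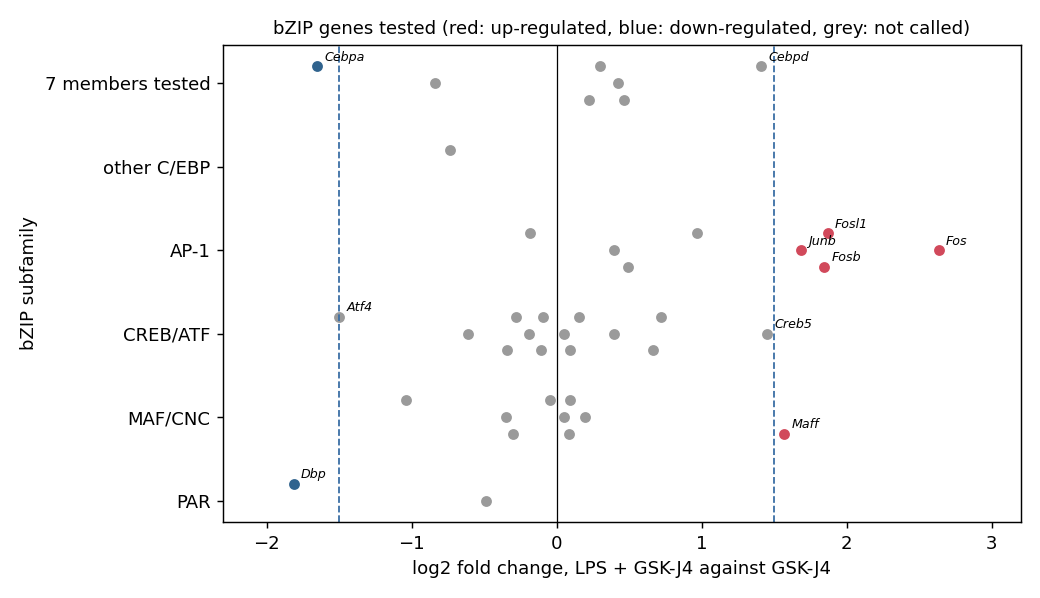
log2 fold change of LPS + GSK-J4 against GSK-J4 (horizontal axis) for the bZIP genes tested, the 7 described above and 34 others, by subfamily (vertical axis; points are staggered for legibility), with the thresholds of -1.5 and 1.5 (dashed lines). The called genes are Cebpa and Dbp on the left and Fos, Fosl1, Fosb, Junb and Maff on the right.

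Partners and regulators of these factors were read from a list of 7 genes, all tested, of which 1 fell and 0 rose. Irf4, a partner of BATF on composite sites, was at 12.3, 16.2 and 12.8 CPM in replicates 1 to 3 of GSK-J4 and at 4.68, 3.43 and 2.48 CPM in LPS + GSK-J4, a log2 fold change of -1.95 (edgeR adjusted p = 0.000203). The other BATF partner, Irf8, went from 97.4 ± 9.73 to 79.9 ± 4.20 CPM (SD, n = 3), with an edgeR adjusted p of 0.132. Trib1, a pseudokinase known to mark C/EBPα for degradation, was at 18.4, 18.9 and 23.5 CPM and at 43.7, 45.4 and 47.9 CPM. Each LPS library was above each GSK-J4 library for Trib1, and the log2 fold change of 1.19 (edgeR adjusted p = 8.09e-05) was not called. Spi1, which encodes the myeloid factor PU.1, did not pass either threshold (log2 fold change -0.21, edgeR adjusted p = 0.285). Trib1, Irf8 and Spi1 were not called and are named for their role beside Cebpa and Batf.

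Of 12 genes linked to C/EBP factors in myeloid cells, 8 were tested, with 4 up-regulated, 0 down-regulated and a median log2 fold change of 1.25. Those that rose were Il1b, Il6 and Ptgs2, with log2 fold changes of 4.00, 3.91 and 1.77, and Il12b, and all of them also answer to NF-kB. Il12b was at 0.236, 0 and 0 CPM in replicates 1 to 3 of GSK-J4, under the level of 3 counts, and at 10.9, 11.1 and 6.61 CPM in LPS + GSK-J4, so no fold change is given for it. The receptor genes Csf1r and Csf3r, known for C/EBP sites in their regulatory regions, were lower and passed the limit for the adjusted p, and not that for the fold change. Csf3r was at 142 ± 8.09 and 87.5 ± 2.47 CPM (SD, n = 3), with a log2 fold change of -0.69 (edgeR adjusted p = 0.000495). Saa3, an acute-phase gene, was at 169.9 ± 59.3 and 192 ± 17.6 CPM (SD, n = 3), without passing a threshold (edgeR adjusted p = 0.572). Csf1r, Csf3r and Saa3 were named for their role and lie outside the rule for named genes.

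Genes that respond to cAMP, the setting in which CREM acts, split in direction. All 11 were tested, 4 rose and 1 fell, and the median log2 fold change was 1.24. Gem, Nr4a1, Pde4b and Pde10a rose with log2 fold changes of 2.89, 2.58, 1.99 and 1.54. Pde10a had at most 24 counts in a library and was not called by DESeq2 (adjusted p = 0.0143), without GSK-J4 replicate 1 (log2 fold change 1.42) or without LPS + GSK-J4 replicate 3 (1.46). Sik1, a kinase that restrains CREB coactivators, was at 78.1, 77.7 and 90.6 CPM in replicates 1 to 3 of GSK-J4 and at 13.7, 13.7 and 14.0 CPM in LPS + GSK-J4, a log2 fold change of -2.56 (edgeR adjusted p = 9.39e-09). The LPS group of Sik1 was thus below the other by a wide margin.

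Among 10 clock genes with D-box elements or tied to the same loop, 9 were tested, 0 rose and 3 fell, with a median log2 fold change of -0.60. These 3 were the clock repressors Bhlhe41 (log2 fold change -1.91) and Bhlhe40 (-1.88) and Dbp. Bhlhe40 went from 786 ± 51.8 to 214 ± 14.1 CPM and Bhlhe41 from 670 ± 59.4 to 179 ± 5.79 CPM (SD, n = 3). Per1 was also lower (log2 fold change -1.36, edgeR adjusted p = 1.38e-05), was not called, and was named after its value was seen. In the list of 8 genes downstream of ATF4 and ATF3 in stress responses, all tested, 1 rose and 0 fell, with a median log2 fold change of -0.04. The gene that rose was Ppp1r15a, which encodes the phosphatase subunit GADD34, at 198 ± 9.13 CPM with GSK-J4 and 811 ± 52.2 CPM with LPS + GSK-J4 (SD, n = 3).

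The genes whose pattern over the 6 libraries was most like that of each member were taken as those with the smallest root mean square difference of log2 CPM, centred on the mean of the gene. For Cebpa these were Zfp503 (difference 0.103), Flcn (0.108) and Tmem189 (0.114), with log2 fold changes of -1.72, -1.52 and -1.52. Tmem189 is annotated over the Cebpb locus on the other strand. For Cebpd they were Amotl2, Rrs1 and Slco3a1, for Cebpg Vav1, Ly9 and Avl9, and for Atf3 Lpin2, Rpl6 and Clint1. For Cebpb they were Scand1, Tnrc18 and Gtf2ird1, for Nfil3 Trak1, Camk2n1 and Clasp1, and for Crem Napepld, 2610001J05Rik and Nkrf. These names describe the 6 libraries only.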

How the data were processed

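RNA-seq libraries of PM, 3 treated with GSK-J4 and 3 with LPS + GSK-J4, were analysed. The authors trimmed the reads (Trimmomatic 0.33), aligned them to mm10 (STAR 2.5.1) and deposited raw counts per gene symbol for each library, in unstranded, same-strand and reverse-strand columns. The annotation used for counting is not given in the sources used here. The kit was directional and the reverse-strand column was used. The antisense column held 0.966 to 1.38% of counts assigned on either strand.

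Counts were scaled by TMM and tested with edgeR 4.0.16 (limma 3.58.1, R 4.3.3) over all genes that passed filterByExpr (minimum count 10, minimum total 15), by the robust quasi-likelihood test without covariates, with Benjamini-Hochberg adjustment. The script was tested on simulated data. The thresholds are those of the study. Standard errors are the log2 fold change divided by the square root of F. Ratios used a prior count of 0.5. The members and lists were chosen with earlier results of these data known. Named genes were all members, up to 4 called genes per direction of each list, and, where a list had none, its most abundant gene; exceptions are stated. A further microglial marker is not reported here. Positions and exon lengths are from GENCODE M21. The study describes its replicates as independent samples, the labels name no cultures, and p-values measure only the spread between these libraries.

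The alternatives were unstranded counts, DESeq2 size factors, the DESeq2 1.42.0 Wald test, no filter, 10 counts in every library, looser thresholds, a prior count of 2 in the ratios, removal of Rn45s, Mir6236 and Lars2, a replicate block, and each library left out in turn. Leaving out replicate 3 of both groups was added after the data were seen. Further tables were computed with Python 3.11.15.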

Additional observations from a re-analysis of the deposited data

How the results depend on the processing

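Cebpa kept its direction in all alternatives, with log2 fold changes from -1.79 to -1.45, and was called in each except that without GSK-J4 replicate 3. Leaving out single libraries gave 0 to 1 up-regulated and 0 to 1 down-regulated genes among the 10, the former being Cebpd and both changes coming without GSK-J4 replicate 3. Of the 10323 to 10513 genes tested in those fits, 271 to 374 were up-regulated and 79 to 100 down-regulated. Cebpb changed sign without LPS + GSK-J4 replicate 3 (-0.000884), which together with the 0.71 without GSK-J4 replicate 3 is its range. With limits of 0.05 for the adjusted p and 1 for the log2 fold change, 1 of the 10 genes was up-regulated (Cebpd), 844 and 285 of all genes were up- and down-regulated, and 3 of the other bZIP genes were down-regulated. With 10 counts required in every library, 176 of all genes were up-regulated. The down-regulated genes of the other bZIP list were 2, Atf4 beside Dbp, with unstranded counts, with DESeq2 size factors, in DESeq2 and without the filter, and 1 to 2 when single libraries were left out. The up-regulated genes of that list were 4 instead of 5 with unstranded counts, where Fosl1 had too few counts to be tested, and without LPS + GSK-J4 replicate 3. Those of the related lists were 6 instead of 9 with 10 counts required in every library, which removed Il12b, Il6 and Pde10a from the test (and Irf4 among those that fell), and Pde10a also lost its call without the filter (log2 fold change 1.48) and without replicate 3 of both groups (1.45). The median over all genes was 0.13 in DESeq2 and 0.12 without the filter. The ratios of the C/EBP genes stayed within 1 SD of their value with a prior count of 2, unstranded counts and each library left out. Those of Batf3 to Batf ranged from -2.73 to -1.45 on the log2 scale and those of Batf2 to Batf from -0.72 to 0.07 when single libraries were left out. With the replicate block, 0 of the 7 genes tested were up-regulated and 1 was down-regulated, and no call among them changed. Of all 10133 genes tested with that block, 306 were up-regulated and 90 down-regulated. Areg of the related lists became up-regulated with it (log2 fold change 1.73). With that block the edgeR adjusted p of Cebpb went from 0.612 to 0.0140 (log2 fold change 0.32). That of Nfil3 went from 0.0470 to 0.00611 (log2 fold change 0.46). Deviations from the group means had r = -0.0110, 0.105 and 0.278 between libraries of the same number. Between libraries of different numbers r ran from -0.267 to 0.225. The highest r was that of replicate 3 of the groups, and the numbers were not taken to pair the samples in the main test. Genes near 3 counts, the Batf genes among them, are limited by depth.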

Other observations

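Cebpa and Cebpg are neighbours on chromosome 7, transcribed away from each other with the start of Cebpg at -62.7 kb from that of Cebpa, and both were lower in LPS + GSK-J4. The other genes within 250 kb of the Cebpa start were examined after these values were seen. In all, 7 genes of the count tables start there, Cebpa and Cebpg included, and 3 were tested (Cebpa, Cebpg and Pepd). Pepd, the peptidase gene on the far side of Cebpg, was at 24.5 ± 5.51 and 24.6 ± 4.47 CPM (SD, n = 3) in GSK-J4 and LPS + GSK-J4, with a log2 fold change of 0.02 (95% interval -0.42 to 0.46, edgeR adjusted p = 0.957). Pepd thus did not differ beyond its spread, and its interval does not include the log2 fold change of -0.84 of Cebpg. Gpatch1 was at 3.39 ± 0.968 and 2.91 ± 0.718 CPM (SD, n = 3) and was not tested, and Slc7a10, Lrp3 and Rhpn2 had means of at most 1.84 CPM.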
